A study of Mus musculus with 3 samples.

Results

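The genes described here are the centrosome and primary cilium genes of the mouse, read against a map of Setd1a binding in cultured quiescent adult neural stem cells (NSCs). They were chosen by name from the protein_coding genes on chromosomes 1 to 19 of the GENCODE M21 annotation. The names were those of the *Ift*, *Bbs*, *Cep*, *Nphp*, *Tctn* and *Dync2* families, together with *Pcm1*, *Ahi1*, *Arl6*, *Arl13b*, *Sdccag8*, *Cc2d2a*, *Mks1*, *Tmem67*, *Ulk4* and *Kif3a*. This gave 75 genes of 20807. Of the genes that carry such a name, *Tctn2* was left out because its gene type in this annotation is not protein_coding.

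Setd1a binding was mapped by CUT & RUN, an assay in which a nuclease tethered to an antibody releases the DNA around a chromatin protein for sequencing. Independent cultures gave the 2 Setd1a libraries, and 1 library with IgG served as the negative control antibody. All 3 came from cells labelled WT and neural progenitor cells, at day 5 in medium with BMP4 and FGF2. The cultures were derived from the dentate gyrus of *Hopx-CreERT2::Setd1a fl/fl::H2B-GFP* mice, 7 to 8 weeks old, so the floxed *Setd1a* alleles, the inducible Cre driven by *Hopx* and the reporter were shared by all libraries. The cells are a culture model of quiescence and not NSCs taken directly from the tissue.

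Setd1a is a methyltransferase for lysine 4 of histone H3, a mark found at active promoters. The primary cilium is a single antenna-like projection that grows from the mother centriole when a cell has left the cell cycle, and it is resorbed when the cell divides again. Intraflagellar transport (IFT) trains carry cargo along it, the BBSome sorts membrane proteins, and the transition zone at its base acts as a gate. In NSCs the cilium is a site of Hedgehog signalling, and regulatory factor X (RFX) proteins, which bind the X-box motif, are known activators of ciliary genes.

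The measurement was 1 list of intervals (peaks), with no height, score or depth per peak and with both replicates combined. Spread between replicates could therefore not be measured, the depth is unknown, and a gene without a peak is only a gene absent from this list. The list held 6969 peaks with a median width of 465 bp, of which 6911 lay on chromosomes 1 to 19. A gene was counted as having a peak when any of its transcripts had its transcription start site (TSS) no farther than 1000 bp from the edge of a peak. As a check of the labelled cell type, 6 of 10 NSC marker genes had such a peak, among them *Sox2*, *Nes*, *Gfap*, *Vim* and *Pax6*, while *Hopx*, *Slc1a3*, *Fabp7* and *Hes5* had none. None of 4 neuronal, 3 oligodendrocyte, 3 microglial and 2 endothelial marker genes had one. Since 22.5% of all protein_coding genes had a peak, counts of 0 in lists this short say little, and a peak is not expression. Positions of peak midpoints below were taken from whichever TSS of the gene lay nearest to the midpoint.

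A few sequences show what these promoters look like. The X-box is a pair of short sites, GTTNCC and GGNAAC, set 0 to 3 bases apart, where N is any base. An exact pair was found in the promoters of 11 of the 75 genes, and they are printed here as 30-base stretches because they show the same element on both sides of the comparison between genes with and without a peak. Positions are on mm10 (RefSeq GRCm38 sequence), read 5′ to 3′ on the strand of the gene, with the X-box in capitals. The first 6 belong to genes with a Setd1a peak.
*Ahi1* (chr10:20952560-20952589, plus strand): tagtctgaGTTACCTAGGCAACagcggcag
*Arl6* (chr16:59639152-59639181, minus strand): aagctcccGTTGCCAAGGGAACgccgcgcg
*Cep19* (chr16:32099803-32099832, plus strand): agccttctGTTGCCTTGGGAACgatcctcg
*Ift57* (chr16:49699226-49699255, plus strand): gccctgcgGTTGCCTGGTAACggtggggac
*Tctn1* (chr5:122264403-122264432, minus strand): ctgtgactGTTGCCCGGGCAACagacgggc
*Tctn3* (chr19:40612350-40612379, minus strand): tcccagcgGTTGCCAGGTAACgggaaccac
The other 5 belong to genes without a Setd1a peak.
*Bbs7* (chr3:36613489-36613518, minus strand): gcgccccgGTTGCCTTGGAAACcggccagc
*Cep295nl* (chr11:118342549-118342578, minus strand): gctctgctGTTCCCATGGCAACagcctccc
*Cep41* (chr6:30693858-30693887, minus strand): gtcccgcGTTGCCCTTGGCAACcattgagc
*Dync2li1* (chr17:84626445-84626474, plus strand): gtgacgtcGTTGCCATGGCAACcgaggagc
*Mks1* (chr11:87853183-87853212, plus strand): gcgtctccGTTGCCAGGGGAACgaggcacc

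The centres of these sites lay between 132 bp upstream (*Tctn3*) and 42.5 bp downstream (*Tctn1*) of the main TSS. Of the 6 genes with a peak, the whole X-box lay inside the peak at *Ahi1*, *Arl6*, *Cep19*, *Ift57* and *Tctn1*, while at *Tctn3* it crossed the edge of the peak. The next 3 sequences show the density of CpG dinucleotides, which are set in capitals, since CpG content is the other promoter feature compared here. They are the middle of the peak between *Sdccag8* and *Cep170*, the bases just before the TSS of *Tctn1*, which had a peak, and the same window of *Mks1*, a transition zone gene like *Tctn1* that had none.
*Sdccag8* and *Cep170* (chr1:176814342-176814541, plus strand): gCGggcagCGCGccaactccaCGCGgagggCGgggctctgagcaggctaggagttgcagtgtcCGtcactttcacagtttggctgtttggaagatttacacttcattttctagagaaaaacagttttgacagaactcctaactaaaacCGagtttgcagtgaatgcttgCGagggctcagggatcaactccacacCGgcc
*Tctn1* (chr5:122264461-122264660, minus strand): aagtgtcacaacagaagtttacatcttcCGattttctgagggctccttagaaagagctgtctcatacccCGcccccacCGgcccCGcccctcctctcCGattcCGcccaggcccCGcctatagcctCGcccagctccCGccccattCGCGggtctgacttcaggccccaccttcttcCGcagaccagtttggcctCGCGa
*Mks1* (chr11:87853015-87853214, plus strand): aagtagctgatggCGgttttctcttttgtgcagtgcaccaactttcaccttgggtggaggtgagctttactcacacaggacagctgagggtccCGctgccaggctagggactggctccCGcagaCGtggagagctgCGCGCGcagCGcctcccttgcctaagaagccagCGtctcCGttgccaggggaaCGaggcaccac
The *Sdccag8* and *Cep170* stretch holds 10 CpGs, that of *Tctn1* 14 and that of *Mks1* 11, each over 200 bases. The order of *Tctn1* and *Mks1* by count depends on the window. In the promoter window used below, 250 bp before to 50 bp after the main TSS, *Tctn1* held 18 CpGs and *Mks1* 20. The ratio of observed to expected CpGs, also used below, was higher at *Tctn1* in both windows. It was 0.83 against 0.59 in the 200 bases printed and 0.82 against 0.72 in the promoter window.

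Setd1a peaks lay at 35 of the 75 genes, and 40 had none. The share was 46.7%, with a 95% Wilson interval of 35.8% to 57.8%. Over all 20807 protein_coding genes on these chromosomes it was 22.5%. At 30 of the 75 genes (40%) the peak overlapped a TSS, against 17.2% of all genes. The share among the 75 was thus higher than the background by either rule, and whether the difference exceeds that between other gene groups of this size was not tested. The interval covers counting error over genes only, since the list carries no replicate error.

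A list of 76 other cilium and centrosome genes, which shares no gene with the 75, gave a like share. It was drawn up with earlier results of these data known, so it is not an independent check. Peaks lay at 34 of these genes (44.7%, 34.1% to 55.9%), in 29 cases over a TSS. Among them were *Plk4*, the kinase that starts centriole duplication, the pericentriolar scaffold gene *Pcnt*, the tubulin gene *Tubg1* and the IFT genes *Wdr19*, *Wdr35* and *Cluap1*. Those without a peak included the centriole assembly genes *Sass6*, *Stil* and *Cenpj*. The centrosomal genes *Nedd1*, *Cdk5rap2* and *Ccp110* and the IFT genes *Ttc21b* and *Traf3ip1* also had none. Hedgehog pathway genes fell on both sides. *Gli1*, *Ptch1*, *Sufu* and *Gpr161* had a peak, whereas *Smo*, *Gli2*, *Gli3* and *Kif7* had none. Of the transcription factors and regulators of the ciliary programme, *Rfx1*, *Rfx2*, *Rfx7* and *Foxj1* had a peak, and *Rfx3*, *Rfx5*, *Mcidas* and *Gmnc* had none.

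**Figure D1:**
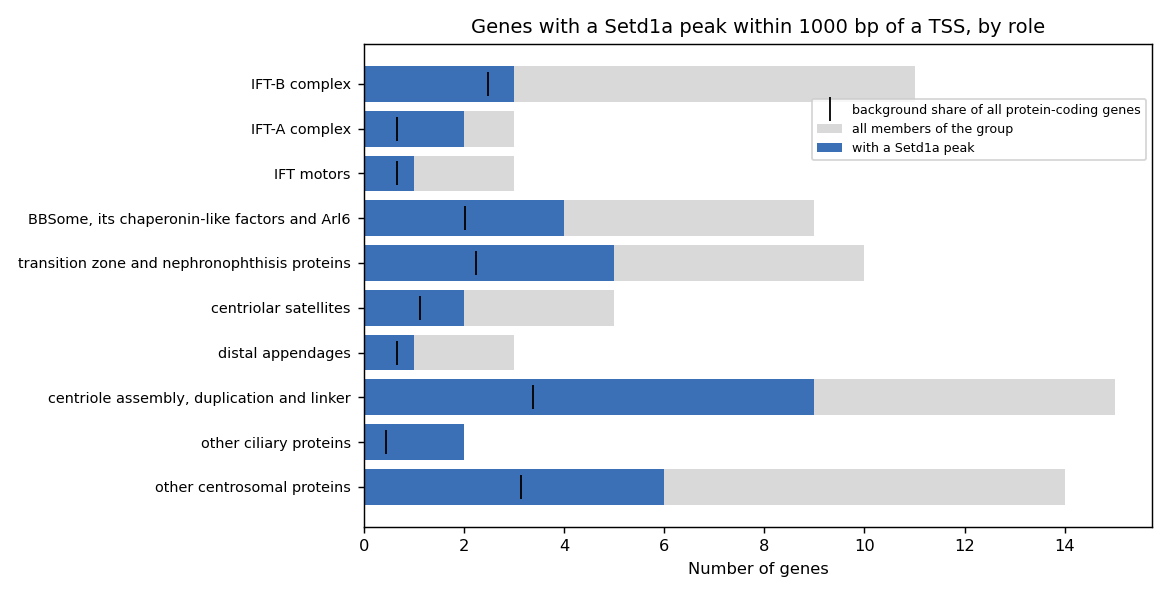
Number of genes of each role (grey bars) and number with a Setd1a peak within 1000 bp of a TSS (blue bars); the black tick marks the number that the share of all protein_coding genes, 22.5%, would give. The group for centriole assembly, duplication and linker holds 9 of 15 genes with a peak, and the IFT-B genes in the set 3 of 11.

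Among the IFT genes, the IFT-A complex, which serves mainly transport back to the cell body, and the IFT-B complex, which serves outward transport, differed in count but are small. *Ift122* and *Ift140* of the 3 IFT-A genes in the set had a peak at their promoter. *Ift43* had none within reach, although a peak of 307 bp lay within the gene, 18334 bp from its nearest TSS. Of the IFT-B genes in the set, 3 of 11 had a peak, namely *Ift27*, *Ift57* and *Ift80*. *Ift20*, *Ift22*, *Ift46*, *Ift52*, *Ift74*, *Ift81*, *Ift88* and *Ift172* had none. The list of other genes held further subunit genes of both complexes. Of them *Wdr19*, *Wdr35*, *Cluap1*, *Ttc26* and *Hspb11* had a peak, and *Ttc21b*, *Traf3ip1*, *Ttc30a1*, *Ttc30a2* and *Ttc30b* had none. Each of the 5 IFT peaks within the set overlapped the TSS.

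The peak at *Ift122* (chr6:115853102-115853999) was the widest of these at 898 bp, with its midpoint 20.5 bp downstream of the TSS. The peak at *Ift140* (chr17:25016073-25016766) was 694 bp wide, also with its midpoint 20.5 bp downstream. A further peak of 848 bp lay in *Ift140* itself, 2924 bp from the nearest TSS. The IFT-B peaks within the set all had their midpoint upstream of the TSS. *Ift57* had a peak of 796 bp (chr16:49698745-49699540, midpoint at -90.5 bp). *Ift80*, a gene mutated in a skeletal ciliopathy, had one of 669 bp (chr3:69004283-69004951, -47 bp). *Ift27*, which encodes a small GTPase, had one of 666 bp (chr15:78173854-78174519, -79.5 bp). Of the motors that drive the trains, *Kif3a*, a subunit of the kinesin for outward transport, had a narrow peak of 299 bp over its TSS (chr11:53567352-53567650, -25 bp). The dynein genes *Dync2h1* and *Dync2li1* had none, and the nearest peak to *Dync2h1* was 559131 bp away. The motor genes *Kif3b*, *Kif3c*, *Kifap3*, *Wdr60* and *Wdr34* of the other list had no peak either.

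In the group of the BBSome, 4 of 9 genes had a peak. They were *Arl6*, whose GTPase recruits the BBSome to membranes, the chaperonin-like genes *Bbs10* and *Bbs12*, and *Bbs4*. *Bbs1*, *Bbs2*, *Bbs5*, *Bbs7* and *Bbs9*, which like *Bbs4* encode subunits of the BBSome itself, had none. Among the BBSome genes of the other list, the subunit gene *Bbip1* and the chaperonin-like gene *Mkks* had a peak, and *Ttc8* and *Lztfl1* had none. The peak at *Bbs12* (chr3:37312239-37312879) was 641 bp wide and centred 3 bp from the TSS. Those at *Arl6* (chr16:59639009-59639435, 427 bp, midpoint at -55 bp) and *Bbs10* (chr10:111298537-111298951, 415 bp, 65 bp) also covered the TSS. The peak at *Bbs4* (chr9:59353041-59353321) was only 281 bp wide and did not reach the TSS, starting 118 bp downstream of it.

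The transition zone and nephronophthisis genes were evenly split. The 5 of 10 with a peak included *Ahi1*, *Cep290*, *Tctn1* and *Tctn3*, and those without included *Cc2d2a*, *Mks1*, *Nphp4* and *Tmem67*. The peak at *Cep290*, which encodes a protein linking the ciliary membrane to microtubules, was 545 bp wide and centred on the TSS (chr10:100487285-100487829, -1 bp). The tectonic genes *Tctn1* (chr5:122264314-122264849, 536 bp, -121.5 bp) and *Tctn3* (chr19:40612365-40612821, 457 bp, -360 bp) had peaks with their midpoint upstream. The peak at *Tctn1* covered the TSS, whereas the one at *Tctn3* ended 132 bp before it. *Ahi1*, a Joubert syndrome gene, had a narrower peak of 312 bp (chr10:20952295-20952606, -96.5 bp).

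Of the centriolar satellite genes, *Pcm1*, the scaffold of the satellites, had a peak of 1135 bp (chr8:41239271-41240405, midpoint at 60 bp). *Sdccag8* had one of 568 bp (chr1:176814158-176814725, -218.5 bp), whose middle is printed above. *Cep72*, *Cep126* and *Cep131* had none. Of the genes of the distal appendages, which anchor the mother centriole to the membrane, *Cep83* had a peak of 1383 bp centred 6 bp upstream of the TSS (chr10:94687973-94689355). *Cep89* and *Cep164* had none.

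The group for centriole assembly, duplication and linker had the most peaks, at 9 of 15 genes. *Cep152*, *Cep192* and *Cep63*, whose products recruit or position Plk4 at the parent centriole, all had a peak, as did *Cep57*, *Cep57l1*, *Cep85*, *Cep97*, *Cep120* and *Cep350*. *Cep44*, *Cep68*, *Cep76*, *Cep135*, *Cep250* and *Cep295* had none, among them the cartwheel-associated gene *Cep135* and the linker genes *Cep68* and *Cep250*. The 9 peaks ranged from 257 bp (*Cep120*) to 1479 bp (*Cep57*). Both genes of the other ciliary proteins had a peak. *Arl13b*, a GTPase of the ciliary membrane, had one of 789 bp, and *Ulk4* had one of 886 bp over its upstream TSS and another of 420 bp that lay 374 bp downstream of an internal TSS. *Ulk4* was the only one of the 35 genes with more than 1 peak within reach of its TSSs (2.86%, against 6.92% of all genes with a peak). Of the other centrosomal genes, *Cep19*, *Cep70*, *Cep85l*, *Cep95*, *Cep162* and *Cep170* had a peak. Those without one included *Cep41*, *Cep55*, *Cep78*, *Cep112*, *Cep128*, *Cep170b* and *Cep295nl*.

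**Figure D2:**
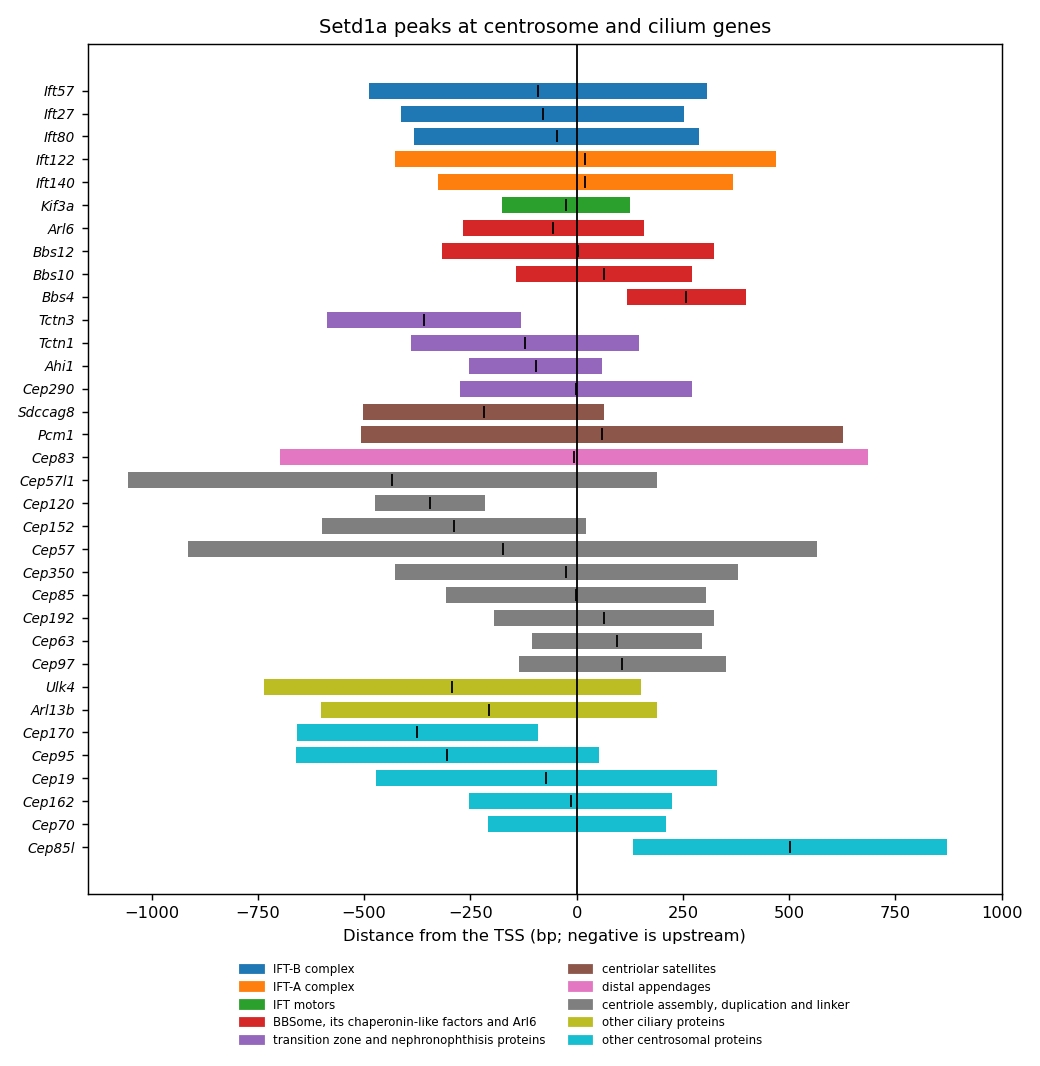
Span of the nearest Setd1a peak at 34 of the 35 genes, coloured by role, with a short black line at the midpoint. Positions are in bp from the TSS nearest to the midpoint (negative is upstream). The bars of 29 genes cross the TSS at 0, those of *Bbs4* and *Cep85l* lie wholly downstream, and those of *Tctn3*, *Cep120* and *Cep170* wholly upstream.

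The median width of the peaks at the 35 genes was 621 bp, and the quartiles were 467.5 and 798.5 bp. Over all 4682 genes with a peak the median was 549.5 bp and the quartiles 378 and 784 bp. Peaks of at least 1000 bp lay at 4 of 35 genes (11.4%) and at 11.3% of all genes with a peak. The widest lay at *Cep57* (chr9:13826542-13828020), wider than 98.6% of all peaks in the list. It was followed by *Cep83* at 1383 bp, *Cep57l1* at 1244 bp (chr10:41809683-41810926), *Pcm1* at 1135 bp and *Ift122* at 898 bp. The midpoints had a median position of -25 bp from the TSS and quartiles of -190 and 20.5 bp. The same values over all genes with a peak were -13 bp, -154.5 bp and 92.875 bp. The midpoint lay within 100 bp of the TSS at 21 of 35 genes (60%, 43.6% to 74.4%), against 43.0% of all genes with a peak, and upstream of it at 23 of 35 (65.7%, 49.2% to 79.2%) against 54.8%. These shares were not tested against each other, and they depend on using the TSS nearest to the midpoint. From the main TSS, the midpoints at *Kif3a* (122 bp), *Cep350* (46.5 bp), *Cep85* (26 bp) and *Cep83* (10 bp) lay downstream instead of upstream. No gene changed the other way. The midpoints at *Kif3a* and *Cep63* (120 bp) then also lay beyond 100 bp. The background shares from the main TSS were not counted.

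Any window from 217 bp up to just under 2957 bp would divide the genes in the same way. The farthest peaks inside it lay 217 bp (*Cep120*), 133 bp (*Cep85l*) and 132 bp (*Tctn3*) from the TSS. The nearest outside it lay 2957 bp (*Cep170b*), 4769 bp (*Bbs7*) and 6309 bp (*Cep295nl*) away, and the range between 217 and 2957 bp was empty. The peaks nearest to *Cep170b*, *Bbs7* and *Cep295nl* lay beyond the downstream end of the gene, so the distance was from a TSS inside it and not from the main TSS. At the other end, the nearest peak to *Cep44* was 960259 bp away. The peak at *Cep95* (chr11:106788592-106789304, 713 bp) had a neighbour of 661 bp lying 1149 bp upstream of the TSS.

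**Figure D3:**
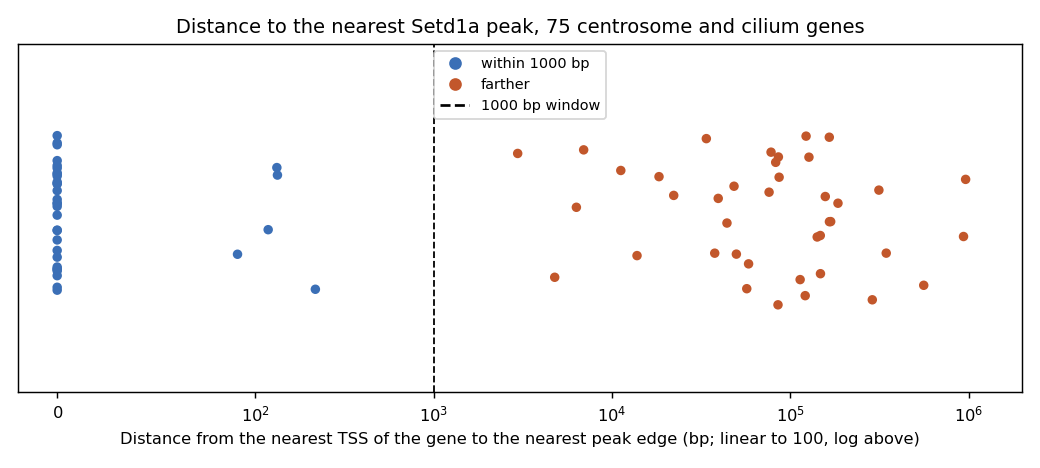
Distance from the nearest TSS of each of the 75 genes to the edge of the nearest Setd1a peak, in bp, on an axis that is linear to 100 bp and logarithmic above; points are spread vertically only to separate them. The 30 genes whose peak overlaps a TSS sit at 0, 5 lie between 91 and 217 bp, and the other 40 start at 2957 bp.

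The 35 genes had 34 distinct peaks, because *Sdccag8* and *Cep170* face away from each other with their TSSs 593 bp apart and the same interval serves both. The edge of that peak lay 91 bp from the *Cep170* TSS and overlapped that of *Sdccag8*. At 23 of 35 genes (65.7%, 49.2% to 79.2%) another gene of any type had a TSS within 1000 bp of the same peak, against 44.0% of all genes with a peak. When only TSSs of protein_coding transcripts were counted, 13 of the 35 shared their peak, and the background by that rule was not counted.

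Divergent protein_coding neighbours, whose TSS lies on the opposite strand within 1000 bp upstream, were found at 20 of the 75 genes (26.7%, 18% to 37.6%). They were found at 15 of the 76 other cilium and centrosome genes (19.7%) and at 9.33% of all genes. A peak was present at 13 of the 20 genes (65.0%, 43.3% to 81.9%), and the background for genes with such a neighbour was 52.4%. All 13 shared the peak with the neighbour, and over all protein_coding genes 1007 of the 1018 such genes did. Shared peaks of this kind lay at 37.1% (23.2% to 53.7%) of the 35 genes, against 21.5% of all genes with a peak. Among these 13, the gap between the TSSs was smallest at *Cep19* and *Pigx*, at 60 bp. At *Bbs12* the neighbour was *Cetn4*, itself a centrin gene of the centriole, 108 bp away. Some neighbours act in chromosome segregation, such as the condensin gene *Smc4*, 168 bp from *Ift80*, and *Anapc13*, which encodes a subunit of the anaphase-promoting complex, 129 bp from *Cep63*. The others were *Mbd4* at *Ift122*, *Cramp1l* at *Ift140*, *Fam76b* at *Cep57*, *Sesn1* at *Cep57l1*, *Ddx5* at *Cep95*, *Tmtc3* at *Cep290* and *Entpd1* at *Tctn3*. To which of the 2 genes such a peak belongs cannot be told apart from intervals. The 7 genes with a divergent neighbour and no peak included *Ift20*, *Nphp4*, *Cep44*, *Cep76*, *Cep89* and *Cep128*. Among genes without such a neighbour, 22 of 55 had a peak (40%, 28.1% to 53.2%), against 19.4% of all such genes.

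The promoters of these genes, taken from 250 bp before to 50 bp after the main TSS, were rich in CpG. The ratio of observed to expected CpGs, which is near 1 where CpGs have not been lost, had a median of 0.80 over the 75 genes and of 0.57 over all genes. It was 0.84 for those of the 75 with a peak and 0.71 for those without. Over all genes the medians were 0.83 with a peak and 0.43 without. A ratio of at least 0.6 was found at 64 of the 75 promoters (85.3%, 75.6% to 91.6%), against 48.1% of all promoters. It was found at 61 of the 76 other cilium and centrosome genes (80.3%). Within the CpG-rich class of the 75, 32 of 64 genes had a peak (50%, 38.1% to 61.9%), and the background for CpG-rich promoters was 38.9%. The interval of these 64 genes included that background. Of the 11 genes with a ratio under 0.6, *Bbs4*, *Cep85l* and *Cep97* had a peak (27.3%, 9.75% to 56.6%), against 7.31% of all such genes, a share below that interval. The part of CpG content in the share of the 75 genes was not tested.

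Within the CpG-rich class most of the peaks lay at genes with ratios of 0.8 to 1, where 21 of 27 genes had one (77.8%, 59.2% to 89.4%) and 42.4% of all genes did. At ratios of 0.6 to 0.8 the count was 8 of 26 (30.8%), next to 31.7% of all genes, and at ratios of 1 and above it was 3 of 11 (27.3%, 9.75% to 56.6%) next to 48.0%. The highest class thus did not continue the rise seen over all genes, but its interval includes the background. The genes with the highest ratios and no peak included *Cep78*, *Cep76*, *Cep126* and *Ift172*, each above 1.1.

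**Figure D4:**
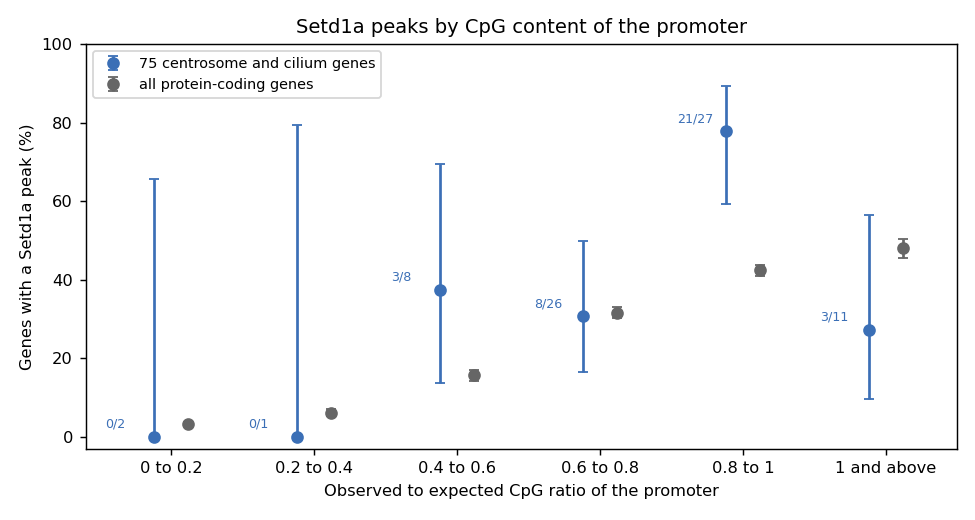
Percentage of genes with a Setd1a peak by the observed to expected CpG ratio of the promoter, for the 75 centrosome and cilium genes (blue, with the number with a peak over the number in the class) and all protein_coding genes (grey); bars are 95% Wilson intervals. The 2 sets lie close together at 0.6 to 0.8 (30.8% and 31.7%) and farthest apart at 0.8 to 1 (77.8% and 42.4%). The 76 other cilium and centrosome genes, not drawn, had a share of 48.1% at 0.8 to 1.

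X-boxes were found more often in the 75 promoters than in all promoters, both at genes with and at genes without a peak. Allowing up to 2 mismatches in the 10 fixed letters on either strand, 52 of the 75 promoters held one (69.3%, 58.2% to 78.6%), against 35.7% of all promoters. The share was 23 of 35 (65.7%) with a peak and 29 of 40 (72.5%) without. Exact pairs, as printed above, were in 11 of 75 promoters (14.7%) and in 156 of 20807 (0.75%), and 6 of the 11 genes (54.5%) had a peak, next to 49 of the 156 (31.4%). With at most 1 mismatch the counts were 9 of 35 (25.7%) with a peak and 13 of 40 (32.5%) without, against 5.66% of all promoters. Of the 76 other cilium and centrosome genes, 38 (50%, 39.0% to 61.0%) held an X-box with up to 2 mismatches. With at most 1 mismatch 13 of them (17.1%) did. The single site GTTGCC, which overlaps the X-box motif, was in 31 of 75 promoters (41.3%) and 12% of all. Read the other way, a peak was present at 23 of 52 genes with an X-box (44.2%, 31.6% to 57.7%) and at 12 of 23 without (52.2%, 33.0% to 70.8%), and these intervals overlap. Over all genes the shares were 23.6% with an X-box and 21.9% without.

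Other short motifs were searched as exact matches on both strands. The NF-Y motif CCAAT was in 22 of 35 promoters with a peak (62.9%, 46.3% to 76.8%), 17 of 40 without (42.5%, 28.5% to 57.8%) and 38.0% of all promoters. It was in 41.3% of all promoters with a peak. Among the other cilium and centrosome genes with a peak it was in 20 of 34 (58.8%). The SP/KLF motif GGGCGG was in 23 of 35 (65.7%) and 21 of 40 (52.5%), next to 69.1% of all promoters with a peak, 39.6% of those without and 46.2% of all promoters. The ETS motif CCGGAAG was in 14 of the 75 (18.7%) and 11.5% of all. Among promoters with a peak it was in 6 of 35 (17.1%), next to 19.3% over all genes. The NRF1 motif GCGCATGCG was in 3 of the 75 (2.25% of all), the YY1 motif AAGATGGCG in 1 (1.88% of all) and the E-box CACGTG in 2 (7.80% of all). A match is a description of the sequence and not a binding site.

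**Figure D5:**
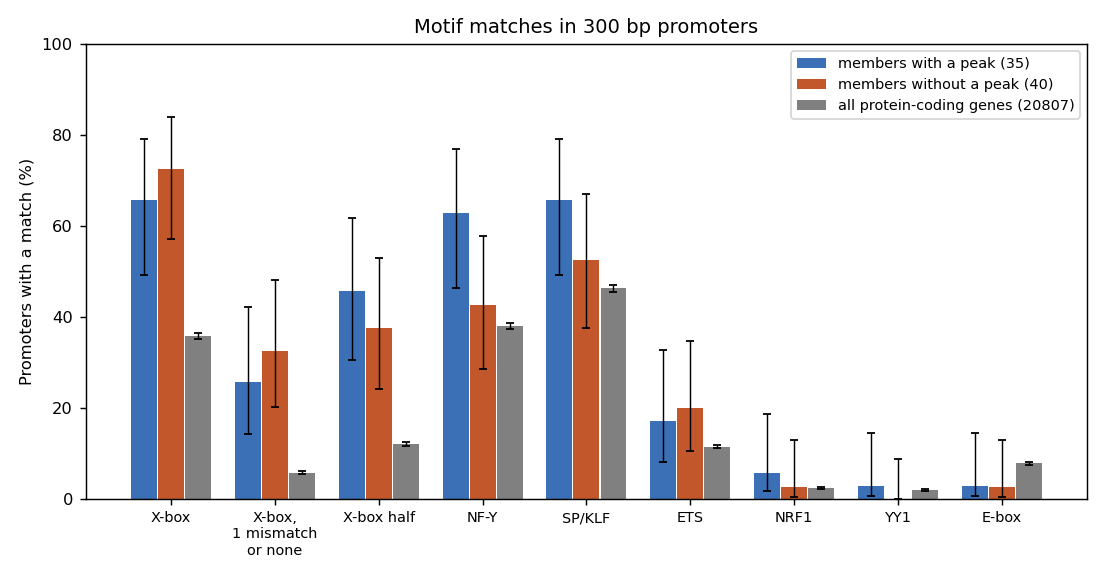
Percentage of promoters with a match to each motif, for the 35 centrosome and cilium genes with a Setd1a peak (blue), the 40 without (orange) and all 20807 protein_coding genes (grey); bars on the columns are 95% Wilson intervals. The X-box stands at 65.7% and 72.5% in the genes with and without a peak and at 35.7% in all genes, while the intervals of the blue and orange columns overlap for each motif.

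By chromosome, the counts ranged from none to all of the genes. On chromosome 10, all 6 genes had one (*Ahi1*, *Bbs10*, *Cep57l1*, *Cep83*, *Cep85l* and *Cep290*), and 30.7% of all genes there did. On chromosome 16, all 5 did (*Arl6*, *Arl13b*, *Cep19*, *Cep97* and *Ift57*), next to 23.6% of all genes. Chromosome 9 held the most genes of the set, 13, of which 7 had a peak, next to 20.2%. By contrast 1 of 6 genes on chromosome 5 and 2 of 8 on chromosome 11 had one, next to 24.5% and 23.7%. These are counts of a few genes each, given without a test.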

How the data were processed

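CUT & RUN for Setd1a was analysed from cultured quiescent adult NSCs labelled WT, with 2 Setd1a libraries and 1 IgG library at day 5. The authors trimmed the reads, aligned them to mm10, filtered them by mapping quality, called peaks in each Setd1a replicate and deposited those present in both as 1 list of chromosome, start and end positions. The submitters' processing notes name bcl2fastq 2.17.1.14, Trimmomatic 0.32, Bowtie2 2.1.0, SAMtools 0.1.18 and MACS2 2.2.8. The replicates were joined by intersecting their peaks. Whether IgG was the control in peak calling, and the overlap required, is not given in the sources used here. Start positions were read as 1-based. No column was left unmatched (0), and the number of reads is unknown.

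Peaks were placed on GENCODE M21 with Python 3.11.15, numpy 2.4.6, pandas 2.3.3 and scipy 1.17.1, and sequences were read from RefSeq GRCm38 with pysam 0.24.0 and samtools 1.23.1. Figures were drawn with matplotlib 3.10.9. For a gene with several peaks the one nearest to a TSS was used. The main TSS was that of the transcript ranked first by APPRIS, then by support level, length and identifier, in the same way for all genes. The assignment of peaks and the motif search were tested on simulated data. Shares carry 95% Wilson intervals. No test between gene groups was run, since the list has no replicate values.

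The genes, their role groups, the list of 76 other genes and the marker genes were chosen with earlier results of these data known. The rule for naming took every gene of the set, but a few genes counted in the totals are not reported here by name. Values are given in full for the named genes with a peak in the IFT, motor, BBSome, transition zone, satellite and distal appendage groups, for the 5 widest peaks, and for the 3 genes on each side of the window. Alternatives changed the window (0, 500 and 3000 bp), the transcripts used, the minimum width (300 bp), the assignment to the nearest gene only, and the X-box search.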

Additional observations from a re-analysis of the deposited data

How the results depend on the processing

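The number of centrosome and cilium genes with a peak was 27 to 36 under the alternatives, next to 35. It was 30 (40%) when the peak had to overlap a TSS, losing *Bbs4*, *Cep120*, *Cep170*, *Cep85l* and *Tctn3*, and 32 with peaks of at least 300 bp, losing *Bbs4*, *Cep120* and *Kif3a*. It was 36 within 3000 bp, gaining *Cep170b*, and 27 when each peak was given only to the gene of the nearest TSS, losing *Arl6*, *Cep19*, *Cep57l1*, *Cep63*, *Cep85l*, *Cep95*, *Cep170* and *Tctn3*. The share over all genes was then 17.2%, 19.9%, 24.1% and 18.3%. Within 500 bp and with protein_coding transcripts, GENCODE basic transcripts or the main TSS alone, the count was 35. The 75 genes had a median of 6 annotated TSSs and all genes 3, which gives them more places to meet a peak, and with the main TSS alone the background was 20.7%. The median midpoint moved from -25 bp to -13.5 bp with the main TSS alone and to -6 bp with the nearest gene alone. Genes sharing their peak fell from 23 to 13 with protein_coding transcripts, because noncoding neighbours no longer counted. Promoters with an X-box fell from 52 to 22 with at most 1 mismatch, because fewer sequences qualify. Over 500 bp on each side of the TSS they numbered 69 (92%), next to 74.3% of all genes. No paired analysis was possible because both replicates are merged in the intervals, and neither of them could be left out in turn. The depth of the libraries limits what the absence of a peak means, and it is unknown.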
